A study of Mus musculus with 12 samples.

Results

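Late wound skin, taken 3 days and 14 days after a thermal injury, was compared with early skin, taken at 0 hours and 2 hours, to find the transcripts whose level changed the same way at both late times against both early times. The comparison used all 12 arrays of the series, 6 late and 6 early, with 3 arrays at each time. Its features were the probe sets that name exactly 1 gene, 6551 of the 7275 on the table, which stand for 5599 genes, and 3477 of these genes were bright enough to be tested. All 4 groups were mouse skin hybridised from total RNA to Affymetrix oligonucleotide arrays, and the labels set them apart only by the time of excision. The labels give no strain, sex, age or further treatment for any group, do not say whether the 0 hours skin had been burnt, and do not say whether the 3 repeats of a time came from separate animals. P-values therefore measure only how far these samples spread, and that spread may be technical. Levels are deposited intensities in linear units, and differences are log2 changes, late minus early, ± the standard error of the limma fit.

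A skin burn is followed by a clotting and inflammatory phase, in which neutrophils and then monocytes enter the tissue, and by a phase in which keratinocytes at the edge divide and migrate over the defect while fibroblasts and vessels fill it with new matrix. Migrating keratinocytes switch from the keratins of resting epidermis to keratins 6, 16 and 17 and make small proline-rich proteins, which are cross-linked into the cell envelope. Mouse skin lies on a sheet of striated muscle, the panniculus carnosus, and on fat, so a skin sample can hold both. In whole skin, fewer cells of a type and less RNA per cell cannot be told apart.

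The samples had the transcripts of skin. Of 9 keratinocyte markers, 6 had a probe set (Krt1, Krt10, Lor, Flg, Trp63 and Cdh1), and each of the 6 lay above the median intensity on all 12 arrays. Spearman correlations were 0.842 to 0.932 within a time and 0.691 to 0.889 between early and late arrays, and the arrays of 0 hours replicate 3 and 3 days replicate 3 had the lowest mean correlation with the others, 0.791 and 0.793. Signs of RNA quality moved with the groups. The log2 ratio of the 3′ to the 5′ Gapdh control probe set was 1.77 ± 0.42 (SD, n = 6) in early and 0.37 ± 0.36 (SD, n = 6) in late skin, with ranges of 1.05 to 2.28 and 0.05 to 1.05. A two-sided exact permutation test of that ratio, which ignores the times within a stage, gave p = 0.0022, the smallest it can give (adjusted p = 0.015 over 35 values per array). The 3′ to 5′ ratio of beta-actin was 0.38 ± 0.54 (SD, n = 6) early and 0.29 ± 0.11 late. Skeletal muscle signal also moved: the mean log2 intensity of 46 muscle genes was 11.61 to 12.64 in early and 10.71 to 11.62 in late arrays.

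Late skin differed from early skin in 729 of 3477 genes at a Benjamini-Hochberg adjusted limma p under 0.05. Of these, 418 were higher (12% of the genes tested) and 311 lower (8.94%), with 118 and 55 of them changed at least 2-fold, while the median change over all genes was 0.02. The count of lower genes leaned on single arrays: it was 197 or 198 when 2 hours replicate 2 or 3 was left out, 159 when 3 days replicate 3 was, and 166 or 207 when 14 days replicate 1 or 2 was. With the Gapdh ratio as a covariate only Gjb2 and Klk6 were called higher and only Fos lower, while the changes of Krt6b (4.60), Krt16 (4.10), Sprr2b (3.84), Sprr2i (2.09), Sprr2e (1.97), Tnc (1.85) and Cdk1 (1.22) kept their direction without passing. With the muscle signal as a covariate 16 genes were called higher and 2 lower (Hspa1a and Pdk4). The direction of 653 and of 701 of the 729 genes was the same under these covariates. Both covariates differed between early and late arrays, so the design cannot tell their part from that of time. A call lost or kept under them therefore shows no cause. Of the lists described below, the Gapdh covariate left 2 wound keratinocyte genes called higher and 1 immediate-early gene lower, and the muscle covariate left 6 wound keratinocyte, 4 cell cycle and 3 barrier genes called higher and 1 glucocorticoid-responsive and 1 heat shock gene lower. The called genes had 87 further tested probe sets, of which 78 differed in the same direction, 44 were also called in it and 0 were called in the opposite one. Among the named genes, further probe sets that did not pass were those of Fbln1 (0.30 and 0.50), Atf3 (-0.25), Bgn (0.22), Cxcl12 (-0.17), Errfi1 (-0.23), Il1r2 (-0.31) and Myh9 (0.31). That of Sprr1b rose by 4.24, against 1.71 for the one used.

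A gene was counted as shared when all 4 differences between a late and an early time had 1 sign and the largest of their p-values passed after adjustment over all genes. By this rule 9 genes were higher late (0.259%) and 0% were lower. Without 3 days replicate 1, 20 genes were shared as higher and 3 as lower. With the largest p left unadjusted, a looser description chosen after seeing the data, 133 genes were higher in all 4 differences (3.83%) and 86 lower (2.47%), and all 219 were among the called genes. The 6 late arrays lay above all 6 early arrays for 125 genes (3.6%) and below them for 88 (2.53%).

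**Figure D1:**
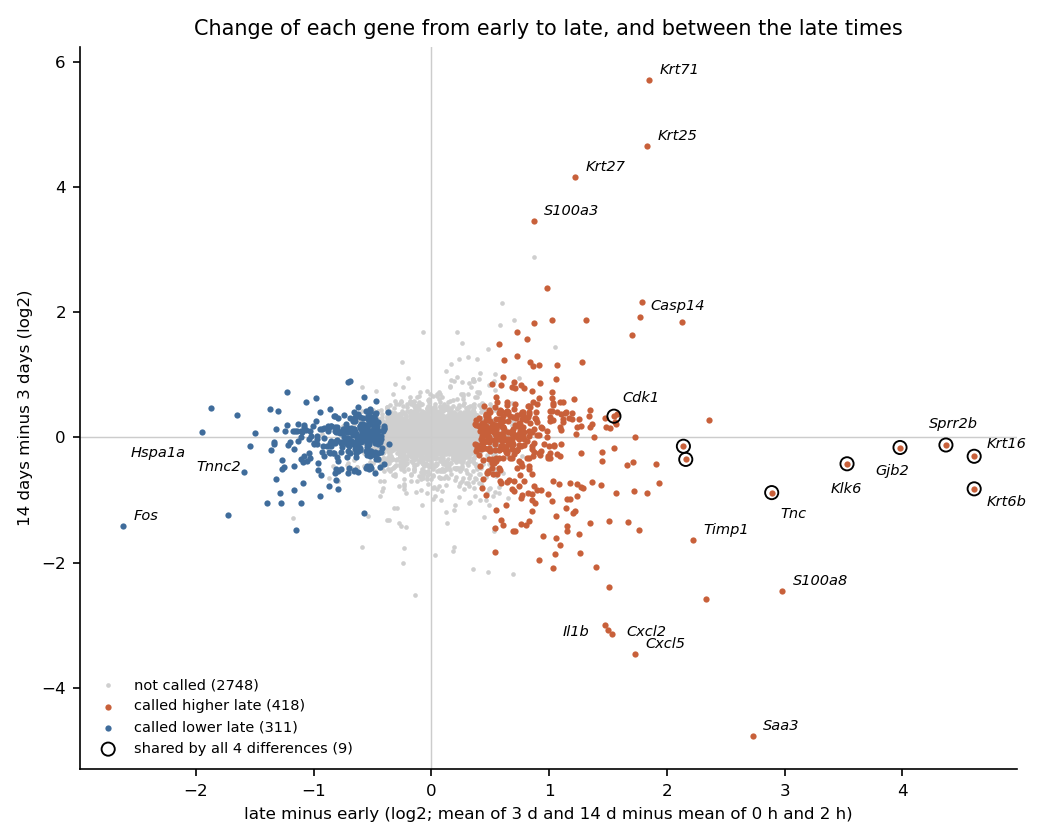
Change of 3477 genes in log2 units from early to late skin (horizontal) and from 3 to 14 days (vertical), with called genes coloured and the 9 shared genes ringed. Krt16, Krt6b and Sprr2b lie far right and near the zero line, Krt71 and Krt25 lie high (higher at 14 than at 3 days), and Saa3 and Cxcl5 lie low (lower at 14 than at 3 days).

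The largest shared rises were those of the wound keratins. Krt6b, a keratin of migrating and hair follicle keratinocytes, lay between 401.1 and 957.7 intensity units in early skin (median 534) and between 3817 and 35163 in late skin (median 16900). Its rise was 4.61 ± 0.39 (24.3-fold, limma adjusted p = 5.4e-06). Krt16, the partner of keratin 6 in its filaments, went from a median of 343 (56.5 to 744.1) to 8810 (3423.5 to 22710), a rise of 4.61 ± 0.38 (24.5-fold, limma adjusted p = 4.9e-06). Every late array lay above every early array for both genes. The array of 14 days replicate 1 was the highest and 14 days replicate 2 the lowest of the late arrays for both, so the 3 arrays of 14 days spanned more than those of 3 days. From 3 to 14 days the changes were -0.82 for Krt6b (limma adjusted p = 0.69) and -0.30 for Krt16 (limma adjusted p = 0.92).

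Gjb2, which encodes connexin 26 of gap junctions, had the smallest p of the shared genes after Klk6. Its early arrays lay between 204.3 and 775.9 (median 278) and its late arrays between 3760.6 and 7881 (median 5600), a rise of 3.98 ± 0.25 (15.8-fold, limma adjusted p = 1.8e-07). Klk6, a secreted serine protease of the kallikrein family, was dim on all 6 early arrays, 25.5 to 127.8 units, and between 1298.8 and 3638.1 (median 3000) on the late arrays. All 6 early values lay under the floor of 225 intensity units and were set to it, so the fitted rise of 3.53 ± 0.21 (11.6-fold, limma adjusted p = 1.7e-07) understates the ratio of the deposited values. Tnc, the matrix glycoprotein tenascin C of healing wounds, lay at 13.5 to 270.6 early (median 145) with 5 of 6 arrays under the floor, and at 586.7 to 4640.9 late (median 1670). It rose by 2.89 ± 0.33 (7.44-fold, limma adjusted p = 7.3e-05), yet its place among the shared genes was marginal, with an adjusted largest p of 0.049 in limma, 0.054 after median scaling and 0.068 after quantile normalization. That limma p was 0.092 to 0.17 when any single array of 0 or 2 hours was left out. It was 0.069 without 3 days replicate 2, and 0.15 and 0.098 without 14 days replicate 1 and 2. With the floor at the 40th percentile, the replicate block and no filter it was 0.15, 0.1 and 0.6.

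**Figure D2:**
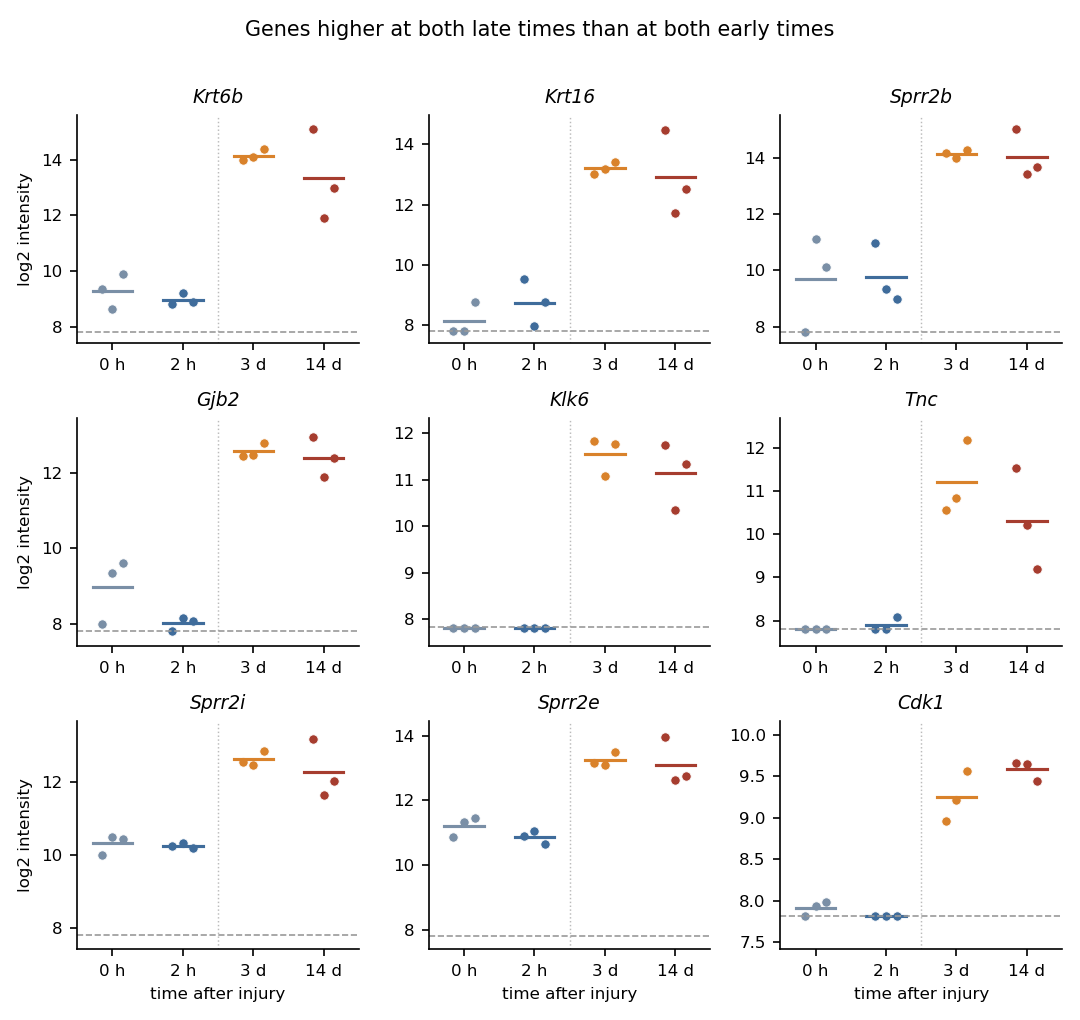
Log2 intensity on each array (points, 3 per time) and its mean per time (bars) for the 9 genes shared by all 4 differences; the dashed line is the floor, and vertical scales differ. No late array overlaps an early one in any panel, and all 6 early arrays of Klk6 and 5 of Tnc sit on the floor.

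The small proline-rich proteins rose as a family. All 9 Sprr genes tested were called higher, and Sprr2b, Sprr2i and Sprr2e were among the shared genes. Sprr2b went from a median of 879 (142.3 to 2244.1) to 17400 (10974 to 33271), a rise of 4.37 ± 0.48 (20.7-fold, limma adjusted p = 5.4e-05). Sprr2i went from a median of 1250 (1029.9 to 1443.6) to 5860 (3188.5 to 9248.5), or 4.48-fold, and Sprr2e from 2010 (1621 to 2826.3) to 8940 (6327.3 to 15751), or 4.39-fold. The early arrays of Sprr2e and Sprr2i were tight, while those of Sprr2b spread from the floor upwards, and late and early arrays overlapped for none of the 3. Sprr2b was no longer shared without 2 hours replicate 2, 2 hours replicate 3 or 14 days replicate 1 (limma shared adjusted p = 0.069, 0.075 and 0.056). The other members rose by 2.36 (Sprr2j-ps), 1.93 (Sprr2h), 1.73 (Sprr1a), 1.72 (Sprr2d), 1.71 (Sprr1b) and 1.55 (Sprr2g). For Sprr1a the early arrays themselves differed, with 2 hours above 0 hours by 1.74 (limma adjusted p = 0.0054). Genes of this family are closely related in sequence, as are the keratin 6 genes, and a probe set may read more than 1 of them.

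The promoters of the 3 shared Sprr2 genes are given because these neighbours on chromosome 3 rose together. Each run is the 250 bases before the gene's start in RefSeq (GRCm38.p6, plus strand), 5′ to 3′: Sprr2b at chr3:92316455-92316704, Sprr2e at chr3:92351893-92352142 and Sprr2i at chr3:92407741-92407990. Capitals mark TGANTCA, the AP-1-type motif bound by dimers of Fos and Jun proteins (N is any base), and the TATA box TATAAA, both searched on both strands, with no overlap between them.
Sprr2b: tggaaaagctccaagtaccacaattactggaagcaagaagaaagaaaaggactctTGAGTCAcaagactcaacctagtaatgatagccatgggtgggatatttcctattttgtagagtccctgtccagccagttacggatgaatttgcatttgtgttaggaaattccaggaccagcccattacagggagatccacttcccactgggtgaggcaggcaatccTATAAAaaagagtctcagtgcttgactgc
Sprr2e: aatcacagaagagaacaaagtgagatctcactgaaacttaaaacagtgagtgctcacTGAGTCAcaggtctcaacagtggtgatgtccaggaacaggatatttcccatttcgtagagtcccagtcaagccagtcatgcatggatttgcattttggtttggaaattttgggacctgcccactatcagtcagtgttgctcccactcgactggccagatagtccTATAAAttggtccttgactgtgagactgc
Sprr2i: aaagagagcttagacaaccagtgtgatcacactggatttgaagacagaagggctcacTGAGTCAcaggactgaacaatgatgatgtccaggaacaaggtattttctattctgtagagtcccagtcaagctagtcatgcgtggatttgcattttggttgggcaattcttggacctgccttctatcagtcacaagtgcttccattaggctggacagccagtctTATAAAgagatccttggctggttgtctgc
The AP-1-type motif begins 195 bases before the start of Sprr2b and 193 before those of Sprr2e and Sprr2i, and the TATA box 29 before all 3. Base by base, without gaps, the windows of Sprr2e and Sprr2i share 70.8% of positions, and Sprr2b shares 55.2% with Sprr2e and 53.2% with Sprr2i. TGANTCA was found in 6.75% and TATAAA in 12.4% of all 32851 promoter windows of that length. In the 3671 windows of tested genes the shares were 5.48% and 7.55%. Both motifs were in each of the 7 tested Sprr genes with a window. Gjb2, Klk6, Tnc and Cdk1 hold no TGANTCA in theirs. These matches describe letters in a window and are not shown to be sites.

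Of 19 tested wound-activated keratinocyte genes 15 rose and none fell, with a median change of 1.73. The 15 hold 6 of the shared genes above (Krt6b, Krt16, Gjb2, Klk6, Sprr2b and Sprr2e) and also Sprr1a, Sprr1b, Sprr2d and Sprr2h. Of the 15, 12 rose in all 4 differences at an unadjusted limma p under 0.05. The list was drawn up with earlier results of these data known. S100a8 and S100a9, the calprotectin subunits made by both keratinocytes and neutrophils, rose by 2.98 ± 0.54 and 2.33 ± 0.47 (limma adjusted p = 0.0019 and 0.0037). S100a8 lay between 146.6 and 1983.1 early (median 339) and between 685 and 16266 late (median 5340), so the groups overlapped. The members that did not pass were Il1rn at 0.32, Anxa1 at -0.12, Itga6 at -0.14 and S100a10 at -0.40.

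Genes of cornification moved unevenly. Of 14 tested genes of epidermal differentiation and barrier 4 rose and none fell, with a median of 0.16, and the 4 were Casp14, Flg, Krt1 and Sprr1b. Of the 14 genes, 2 passed the filter only through late arrays. Casp14, a protease of filaggrin processing, lay between 283 and 430.8 early (median 419) and between 587.7 and 3042.2 late (median 1590), a rise of 1.77 ± 0.16 (3.40-fold, limma adjusted p = 6.7e-06). Its late arrays did not overlap the early ones but differed between themselves, with 14 days above 3 days by 1.93 (limma adjusted p = 0.00019). Flg, the filament-aggregating protein of the granular layer, rose by 1.79 ± 0.17 with its lowest late array (2736.5) just under its highest early one (2767.8), and was likewise higher at 14 than at 3 days by 2.17. Lor (0.07), Krt10 (-0.18) and Krtdap (-0.17) did not pass. Genes that anchor basal keratinocytes were near the background: 3 of 19 rose (Lama3, Sfn and Jup, each by 0.83), none fell, and the median was 0.03.

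Most of the cell division genes tested rose in late skin. Of 29 tested cell cycle and DNA replication genes 22 rose and none fell, with a median of 0.85 (12% of all genes rose). Among the 22, 14 rose in all 4 unadjusted differences. Cdk1, the kinase that drives entry into mitosis, lay between 94 and 252.6 early (median 176, 4 of 6 arrays under the floor) and between 499.9 and 812.1 late (median 726), a rise of 1.55 ± 0.13 (2.94-fold, limma adjusted p = 4.9e-06). With the floor at the 40th percentile its change was 0.92 and it was no longer shared (limma shared adjusted p = 0.12). Mcm5, a subunit of the replicative helicase, went from 537 (253.5 to 684.7) to 1400 (1123.3 to 1680.9), and thymidine kinase Tk1 from 240 (58.4 to 527.3) to 873 (629.9 to 926.2), rises of 2.95-fold and 2.78-fold. None of these genes overlapped between the stages. Mcm3, of the same helicase, rose by 1.04 ± 0.13 (limma adjusted p = 2e-04), and Mki67, Ccna2, Rrm2 and Cdc20, named after their values were seen, rose by 1.06, 1.02, 0.89 and 1.09. Pcna at 0.30, Ccnd1 at 0.45 and Cdk4 at 0.42 did not pass. The mean log2 intensity of the list was 8.78 to 9.12 in early and 9.43 to 9.96 in late arrays, and most members were dim: 60 of the list's genes had a probe set and 29 passed the filter, 11 of them bright on late arrays alone. For a gene that passed only through its late arrays the filter favours a higher call, so these counts describe the genes tested and not the list. The same holds for 5 each of the macrophage and cytokine genes tested, 3 each of the wound keratinocyte genes and matrix proteases, 2 each of the barrier, chemokine and matricellular genes, and at most 1 in each other list. Genes named here that passed only through late arrays include Cdk1, Mcm3, Klk6, Tnc, Vcan, Casp14, Ccr2, C3ar1, Ctsc, Mmp9, Timp2, Pdia6, Slc2a1, Cxcl5, Cxcl2 and Il1b. Among genes bright on early arrays alone, 2 were in the oxidative phosphorylation list, 2 in the glycolysis list (Phkg1 among them) and 1 in the proteasome list.

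The Cdk1 promoter is shown for comparison with those of the Sprr2 genes (RefSeq, GRCm38.p6, chr10:69352913-69353162, minus strand, 250 bases before the start). Capitals mark CCAAT on either strand, here read as its complement ATTGG, and TTTGAA, the core of the cell cycle genes homology region, searched on both strands.
Cdk1: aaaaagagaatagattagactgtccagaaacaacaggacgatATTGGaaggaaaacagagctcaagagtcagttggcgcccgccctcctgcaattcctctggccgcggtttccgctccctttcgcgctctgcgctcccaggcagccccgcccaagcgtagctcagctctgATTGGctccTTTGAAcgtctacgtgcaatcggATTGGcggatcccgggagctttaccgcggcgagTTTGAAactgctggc
CCAAT lies at 3 places, beginning 208, 80 and 48 bases before the start, and TTTGAA at 2 places, 71 and 15 bases before it, with no overlap. Of all promoter windows 33.8% hold CCAAT and 16.0% hold TTTGAA, and of those of tested genes 34.8% and 9.86%.

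Transcripts of monocytes and macrophages rose, more at 3 than at 14 days. Of 24 tested markers 22 rose and none fell, with a median of 1.08, and Spi1 (0.55) and Pirb (0.53) did not pass. Among the 22, 8 rose in all 4 unadjusted differences. Ctss, a lysosomal cysteine protease of antigen-presenting cells, lay between 1431.7 and 3829.2 early (median 1980) and between 4326.1 and 10253 late (median 6290), a rise of 1.57 ± 0.21 (2.96-fold, limma adjusted p = 0.00034). C1qa, a chain of the complement component C1q, went from 1360 (546.3 to 2129.8) to 3240 (2915.6 to 8863.8), and Ccr2, the chemokine receptor of inflammatory monocytes, from 329 (220.3 to 401.9) to 759 (452.9 to 1524.8). Both had no overlap and rose by 1.83 ± 0.29 and 1.35 ± 0.17. Cyba, a subunit of the phagocyte oxidase, rose by 1.18 ± 0.16. The marker mean was 9.32 to 10.06 in early arrays, 11.23 ± 0.27 (SD, n = 3) at 3 days and 10.07 ± 0.06 at 14 days. At 14 days 13 of the markers were lower than at 3 days, against 2.1% of all genes that were lower and 1.29% that were higher. Cd53, a leukocyte tetraspanin, is an example, with a rise of 1.40 ± 0.18 over early skin and a difference of -2.06 from 3 to 14 days (limma adjusted p = 0.00029). Without the 3 days arrays 5 of the 24 markers were called higher.

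Most chemokines were likewise higher at 3 than at 14 days. Of 11 tested chemokines 4 rose (Ccl8, Cxcl5, Cxcl2 and Cxcl12) and none fell, and none rose in all 4 unadjusted differences. At 14 days 7 were lower than at 3 days, beside 2.1% of all genes. Cxcl5, which attracts neutrophils, lay between 15.2 and 183.7 early, all under the floor, and between 17.5 and 7380.8 late (median 734), with a difference of -3.46 between 14 and 3 days (limma adjusted p = 0.00042). Cxcl2 and the cytokine Il1b differed by -3.13 and -3.07. Cxcl5, Cxcl2 and Il1b passed the filter only through arrays of 3 days. A level higher at 3 days than at the other times was thus favoured by the filter for them. Saa3, an acute phase protein, lay at 99.1 to 1000.5 early (median 271) and reached 23161 late (median 2070), and was lower at 14 than at 3 days by -4.77 (limma adjusted p = 0.00067). For each of these 4 genes the lowest late array lay inside the early range. Of the 4 neutrophil markers tested, Mmp9, S100a8 and S100a9 rose and Il1r2 fell by 0.81 ± 0.14 (limma adjusted p = 0.0016). S100a8 and S100a9 are also counted among the wound keratinocyte genes, and Mmp9 among the matrix proteases. Of 13 complement and coagulation genes 6 rose and 2 fell: C3ar1, the C3a receptor, rose by 0.99 ± 0.15, and Cd59a, an inhibitor of the membrane attack complex, fell by 0.85 ± 0.13 without overlap (limma adjusted p = 7e-04).

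Proteases, their inhibitors and lysosomal enzymes rose in part. Mmp9, a gelatinase, lay between 46.1 and 253 early (median 176) and between 514.2 and 1580.9 late (median 801), a rise of 1.91 ± 0.23 (3.75-fold, limma adjusted p = 0.00016). Its inhibitor Timp1 went from 855 (624.1 to 1259.7) to 3660 (1559.4 to 14574), and Timp2 from 233 (103.6 to 339.1) to 811 (406.8 to 1049.1), rises of 2.22 ± 0.33 and 1.58 ± 0.20. None of the 3 overlapped between early and late arrays, beside 3.6% of all genes that were higher without overlap. Mmp9 and Timp2, however, passed the filter only through late arrays, which favours a lack of overlap. In all, 7 of 15 tested matrix proteases and inhibitors rose and none fell, with a median of 0.44, where 3 of the 15 passed the filter only through late arrays. Of 30 lysosomal enzymes 13 rose and none fell, with a median of 0.39 (12% of all genes rose). Among the 13, 2 rose in all 4 unadjusted differences, and 4 of the 30 were lower at 14 than at 3 days. Ctsc, which activates granule serine proteases, rose by 1.44 ± 0.18 and Lgmn, the lysosomal asparaginyl endopeptidase, by 1.25 ± 0.20. The count of 13 was 8 without 2 hours replicate 3, 3 days replicate 3, 14 days replicate 1 or 14 days replicate 3, each left out alone.

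Matrix genes are given by class, and differences between the classes were not tested. Of 26 genes of basement membrane and other matrix 10 rose and none fell, with a median of 0.25. Bgn, the proteoglycan biglycan, lay between 3180.4 and 8223.8 early (median 4860) and between 8279.6 and 14805 late (median 10700), and Fbln1, fibulin 1, between 760.3 and 1205.8 (median 1140) and between 1809.8 and 2407.3 (median 1960). They rose by 1.12 ± 0.18 and 0.93 ± 0.14 (limma adjusted p = 0.0011 and 0.00072) without overlap. Among 17 fibrillar collagens and processing genes, 2 rose, Col5a2 by 0.89 ± 0.19 and Ppib, a collagen-folding isomerase, by 0.52 ± 0.15 (a call lost without any of 5 of the 12 arrays), and none fell, a share like the 12% of all genes. Col1a1 (-0.24), Col1a2 (-0.10) and Col3a1 (0.14) did not pass. Without 2 hours replicate 2, 2 hours replicate 3, 3 days replicate 2, 3 days replicate 3 or 14 days replicate 1, 1 of the 17 was called. Of 13 matricellular and wound matrix genes 6 rose and 2 fell. Beside Tnc these held Vcan, the proteoglycan versican, at 1.01 ± 0.20, and Postn, periostin, at 1.07 ± 0.23, while Ccn2, connective tissue growth factor, fell by 1.17 ± 0.26 (limma adjusted p = 0.0062). Ccn2 was higher at 2 than at 0 hours by 1.74 (limma adjusted p = 0.014).

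Some genes of the actin cytoskeleton and cell motility rose in late skin. Of 42 tested, 19 rose, 2 fell (Gsn by -0.70 and Actb by -0.52) and 11 rose in all 4 unadjusted differences, with a median of 0.41. The count of 19 was 12 without 3 days replicate 3 and 12 without 14 days replicate 2. Cfl1, the actin-severing protein cofilin, lay between 2048.8 and 3750.3 early (median 3230) and between 4742.9 and 9647.7 late (median 6780), a rise of 1.27 ± 0.20 (2.41-fold, limma adjusted p = 0.00076). Myh9, the heavy chain of non-muscle myosin, went from 1480 (1176.3 to 3336.7) to 4270 (3289.4 to 4809.6), with 1 early array above the lowest late one. Marcksl1 and Tubb5, a tubulin, rose by 1.52 ± 0.25 and 0.91 ± 0.13 without overlap. Beside the fall of Actb stands the beta-actin control ratio of 3′ end to middle, 2.38 ± 0.60 (SD, n = 6) early and 1.13 ± 0.68 late (two-sided exact permutation p = 0.011, adjusted p = 0.025); its part in that fall was not tested.

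**Figure D3:**
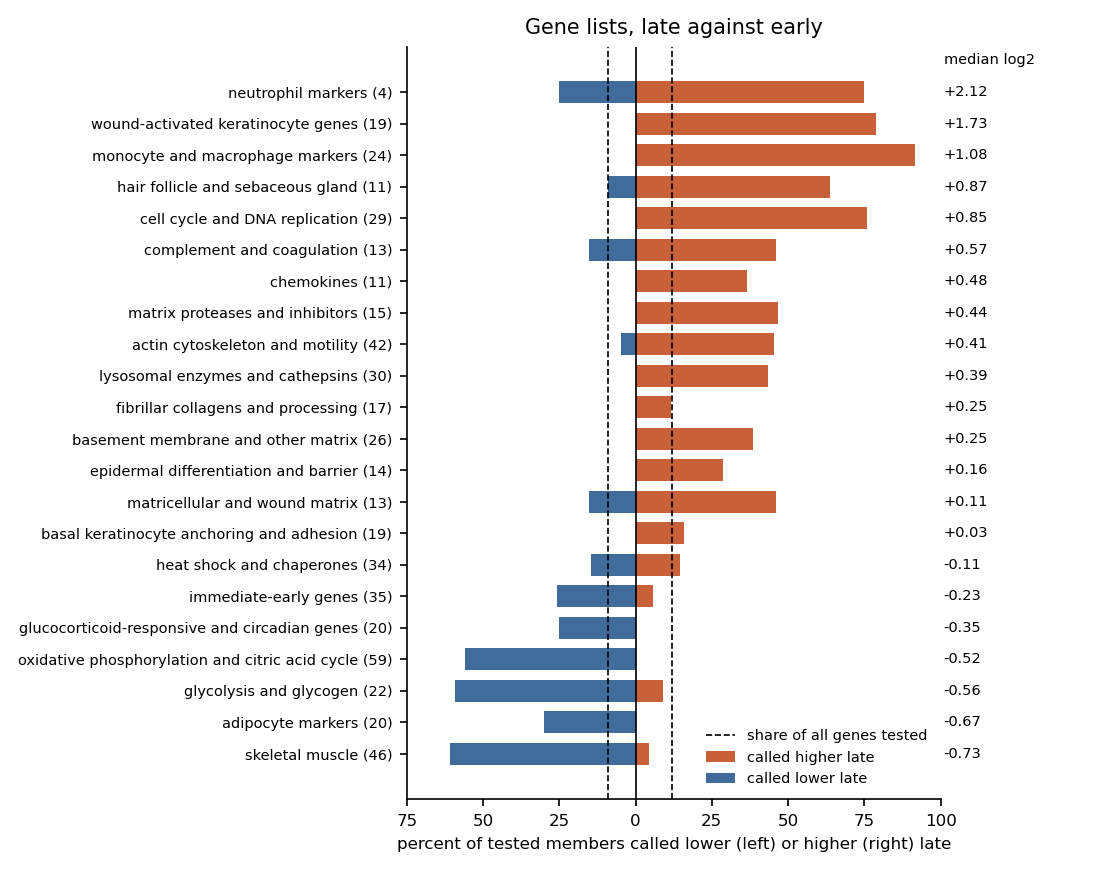
Percent of tested members called higher (right) or lower (left) in late skin for 22 gene lists, with the number tested in parentheses, the median log2 change at the right, and dashed lines at the share of all genes tested. Macrophage, wound keratinocyte and cell cycle genes reach furthest right, and muscle, glycolysis and respiration genes furthest left.

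The genes lower in late skin were led by skeletal muscle. Of 46 tested muscle genes 28 fell and 2 rose (Myog and Tnni1, by 0.93 and 1.10, the latter lost without any of 10 of the 12 arrays), against 8.94% of all genes that fell, with a median of -0.73, and 17 fell in all 4 unadjusted differences. Tnnc2, the calcium-binding troponin of fast fibres, lay between 11206 and 25275 early (median 13400) and between 2709.7 and 8135.4 late (median 4810), and fell by 1.54 ± 0.25 (2.91-fold, limma adjusted p = 0.00096). Ckmt2, the mitochondrial creatine kinase of muscle, went from 6280 (3809.3 to 11054) to 2610 (1058.2 to 3672.2), and Actn3, the alpha-actinin of fast fibres, from 17100 (13240 to 33198) to 8220 (3861.1 to 12790), falls of 2.84-fold and 2.52-fold. Myl1, Ank1, Sh3bgr, Ryr1 and Myom1 fell by 2.04-fold to 2.49-fold. In all 8 genes the highest late array lay below the lowest early one, but Ckmt2, Actn3, Ryr1 and Myom1 had been chosen among genes without overlap. Of the 46 muscle genes, 19 were lower late without overlap, beside 2.53% of all genes. Between 3 and 14 days the difference passed the limma test for none of the 8. Between 0 and 2 hours it was largest for Ank1, which was at -0.86 with a limma adjusted p of 0.05, and the others did not pass. At 0 hours the mean of the list was 12.19 ± 0.40 (SD, n = 3) and at 2 hours 11.67 ± 0.07, while 3 days had 11.22 ± 0.46 and 14 days 11.33 ± 0.24, so 2 hours lay nearer to the late times than 0 hours did. Without the 0 hours arrays 17 muscle genes were called lower.

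Respiration genes fell with them. Of 59 citric acid cycle and oxidative phosphorylation genes 33 fell and none rose, with a median of -0.52, and 10 fell in all 4 unadjusted differences. Cox7a1, the cytochrome c oxidase subunit of muscle, lay between 646.1 and 1207.6 early (median 923) and between 225.1 and 617.2 late (median 365), and fell by 1.34 ± 0.22 (2.53-fold, limma adjusted p = 0.0011). Ndufab1 and Sucla2, of complex I and the citric acid cycle, are not limited to muscle and went from 2040 (1471.6 to 2985.7) to 1130 (845.1 to 1328.7) and from 2260 (1522.5 to 2874.1) to 1250 (1092.3 to 1374.2). Early and late arrays did not overlap for these 3 genes. The count of 33 leaned on single arrays: leaving out an array of 0 hours gave 12 (replicate 1) or 50 (replicate 3), of 2 hours 12 (replicate 2) or 13 (replicate 3), of 3 days 14 (replicate 2) or 9 (replicate 3), and of 14 days 11 (replicate 1) or 15 (replicate 2). The medians without each of these arrays lay between -0.62 and -0.39. With the muscle signal as a covariate the median was 0. That signal itself differed between early and late arrays, and its list holds mitochondrial genes such as Ckmt2. Its part therefore cannot be told apart from that of time.

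Glycolysis and glycogen genes were also lower: 13 of 22 fell and 2 rose, with a median of -0.56. Among the 13, 5 fell in all 4 unadjusted differences. Pgam2, Phkg1 and Pgm1, the phosphoglycerate mutase of muscle, a phosphorylase kinase subunit and phosphoglucomutase, fell by 1.18 ± 0.25, 1.22 ± 0.18 and 1.03 ± 0.20. Slc2a1, the glucose transporter of proliferating cells, and Pgam1, the mutase of other tissues, rose by 0.85 ± 0.16 and 0.77. Pgam2 went from 5090 (4901.9 to 9777.5) to 2890 (1327.3 to 3990) without overlap, and Slc2a1 from 305 (180 to 425.8) to 552 (377.6 to 900.4) with overlap. The count of 13 was 8 without 0 hours replicate 1, 2 hours replicate 2, 2 hours replicate 3 or 14 days replicate 2, 7 without 14 days replicate 1 and 6 without 3 days replicate 3. Of 20 adipocyte markers 6 fell and none rose, with a median of -0.67, and 1 fell in all 4 unadjusted differences. Adipoq, the fat hormone adiponectin, went from 11000 (4787.4 to 16833) to 3940 (2220.6 to 7525.4), and fell by 1.27 ± 0.31 (limma adjusted p = 0.010) with overlap. Fasn, fatty acid synthase, fell by 1.40 ± 0.33. With all 5599 genes tested instead of the bright ones, no adipocyte marker was called, 10 respiration genes were lower and 5 glycolysis genes were lower.

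**Figure D4:**
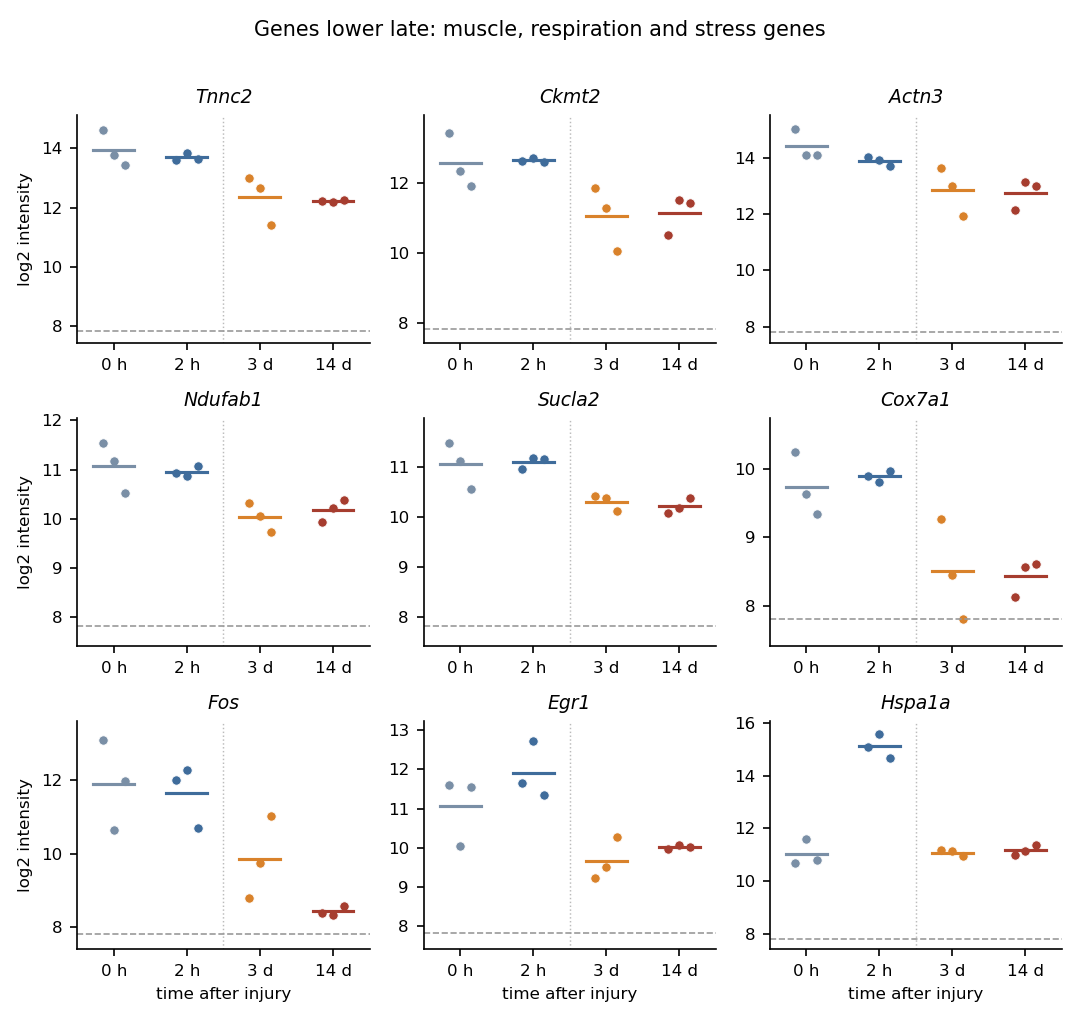
Log2 intensity on each array (points, 3 per time) and its mean per time (bars) for 9 genes called lower in late skin; the dashed line is the floor. The muscle and respiration genes are lower at both late times, while Hspa1a is high at 2 hours and near its late level at 0 hours.

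Some lower calls rested on the 2 hours arrays. Between 2 and 0 hours 139 genes were higher (4%) and 58 lower (1.67%). Of the 311 genes called lower in late skin 18 had been raised at 2 hours, as had 19 of the 418 called higher, beside the 4% of all genes. Without the 2 hours arrays 158 genes were called lower. Without those of 0 hours, 3 days or 14 days the count was 357, 167 or 110. Hspa1a, an inducible chaperone, lay between 1664.1 and 48762 early (median 14700) and between 1978 and 2644.9 late (median 2250). Its late change of -1.95 ± 0.18 (limma adjusted p = 1.4e-05) stands beside a rise of 4.09 from 0 to 2 hours, and without the 2 hours arrays the change was 0.09. Hspa1b, Hsph1 and the metallothionein Mt2 were likewise higher at 2 than at 0 hours, by 3.34, 2.37 and 2.35. Without the 2 hours arrays the changes of Hspa1b and Hsph1 were 0.30 and 0.12 and did not pass, while Mt2 was called higher in late skin, by 0.69 (limma adjusted p = 0.026). The lower call of Mt2 was lost without any of 6 of the 12 arrays. Of 34 heat shock and chaperone genes 5 fell and 5 rose, beside 8.94% of all genes that fell and 12% that rose. Of those that rose, 4 act in the endoplasmic reticulum: Pdia6, a disulfide isomerase, by 1.47 ± 0.20, and, named after their values were seen, Pdia4 by 1.03, Pdia3 by 0.73 and Hspa5 by 0.49. The other was Cct3, of the cytosolic chaperonin, at 0.46. Pdia6 lay between 92 and 300.1 early (median 203) and between 349 and 951.2 late (median 759). It passed the filter only through late arrays, which favours a higher call. The 5 rises were 3 without 0 hours replicate 1, 2 hours replicate 2 or 14 days replicate 2, and 2 without 2 hours replicate 3, 3 days replicate 3 or 14 days replicate 1.

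Immediate-early genes were lower in late skin in a minority of cases. Of 35 tested 9 fell and 2 rose (Ier3 by 1.15 and Dusp6 by 0.52), with a median of -0.23. Among the 9, 2 fell in all 4 unadjusted differences. Fos, a subunit of AP-1, lay between 1585.4 and 8667.7 early (median 4050) and between 323.3 and 2085.4 late (median 416), and fell by 2.62 ± 0.41 (6.16-fold, limma adjusted p = 0.00083). Its level at 2 hours differed from that at 0 hours by -0.24 (limma adjusted p = 0.85), and 3 days replicate 3 was the late array that overlapped the early ones. Egr1, a zinc finger factor, went from 3060 (1051.9 to 6779.3) to 1030 (597.3 to 1227.2) with overlap, and fell by 1.65 ± 0.29. Atf3 and Cebpd fell by 1.17 ± 0.23 and 1.15 ± 0.20 and had risen by 1.92 and 1.78 from 0 to 2 hours. Without the 2 hours arrays 2 of the 35 were lower and 3 higher. Of 20 glucocorticoid-responsive and circadian genes 5 fell and none rose, with none lower in all 4 unadjusted differences. Pdk4, the kinase that turns off pyruvate dehydrogenase, fell by 1.87 ± 0.24, and Errfi1 by 1.11 ± 0.26, and both had risen at 2 hours, by 2.09 and 2.22. The count of 5 was 3 without 2 hours replicate 2, 2 hours replicate 3, 3 days replicate 2, 14 days replicate 1 or 14 days replicate 2, and none was lower without the 2 hours arrays.

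The late times themselves differed in 118 genes, 72 of which were called against early skin. Of these 72, 43 were higher late and lower at 14 than at 3 days, and 25 were higher late and higher at 14 days. Hair follicle genes had the largest differences of the latter kind. Of 11 tested, 7 rose, 1 fell (Scd1 by -0.77) and 9 were higher at 14 than at 3 days. None of the 11 rose in all 4 unadjusted differences. Krt71, a keratin of the inner root sheath, lay between 34 and 1886 early (median 240) and between 59.2 and 18030 late (median 3830), and differed by 5.71 between 14 and 3 days (limma adjusted p = 1.1e-05). Krt25 and Krt27, of the same sheath, and S100a3, of the hair cuticle, differed by 4.65, 4.16 and 3.45. The mean of the list was 11.25 ± 0.63 (SD, n = 3) at 14 days, against 9.68 ± 0.63 at 0 hours, 8.80 ± 0.09 at 2 hours and 8.73 ± 0.06 at 3 days. Without the 14 days arrays no hair follicle gene was called higher, and the change of Krt71 was -1.01; without the 2 hours arrays none was either. The late calls of Krt27 and S100a3 were lost when any of 8 or of 10 of the 12 arrays was left out, with an adjusted limma p of up to 0.091 and 0.10.

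**Figure D5:**
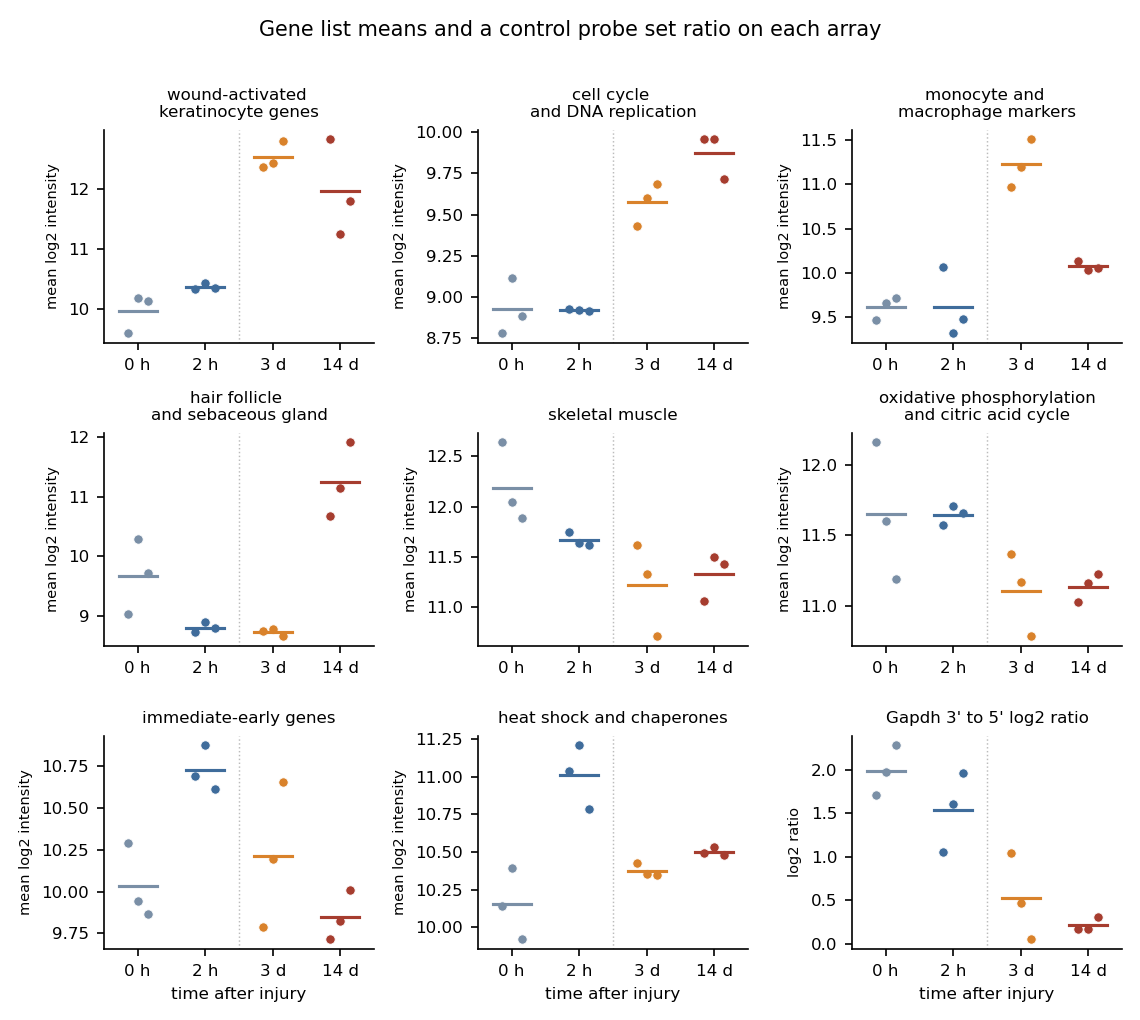
Mean log2 intensity of 8 gene lists and the log2 ratio of the 3′ to the 5′ Gapdh control probe set on each array (points, 3 per time; bars, mean per time), with vertical scales that differ. Wound keratinocyte and cell cycle genes are high at both late times, macrophage markers mainly at 3 days and hair follicle genes at 14 days, and the Gapdh ratio is lower late.

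The remaining lists are given by their counts. Of 25 cytokines and their receptors, 5 of which passed the filter only through late arrays, 8 rose and 1 fell. Of 9 acute phase and antimicrobial genes 5 rose and 1 fell. Fibroblast markers had 5 rises and 1 fall among 17, with a median of 0.12, and myofibroblast and smooth muscle genes 2 rises and 2 falls among 13. In small lists, 2 of 5 endothelial, 2 of 3 melanocyte and 1 of 2 lymphocyte markers rose, 1 of 5 nerve genes rose and 1 fell, and 1 of 3 erythroid genes fell. None of 11 interferon response genes and none of 4 mast cell markers was called. Few genes rose in antigen presentation (1 of 15), among cytoplasmic ribosomal proteins (1 of 22) or in the proteasome (2 of 32), and none fell. Cell growth factor signalling had 2 rises and 2 falls among 27 genes. Among 32 antioxidant and metal response genes 8 fell and 2 rose, and in lipid synthesis, sterols included, 5 of 21 fell and none rose, beside 8.94% of all genes that fell.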

How the data were processed

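Total RNA of 12 mouse skin samples, 3 per time after injury, was hybridised to 1 Affymetrix array each. The authors deposited linear intensity per probe set, without detection calls. How the arrays were scaled, with which software, and which probe sets were kept is not given in the sources used here. Groups and replicate numbers come from the sample labels. Probe sets were named through GEO's platform annotation: 6551 name 1 gene, 251 several and 446 none, and 27 were control probe sets.

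Trimmed means of the arrays deviated by at most 8.56%, so intensities were not rescaled. The pooled 25th percentile (225) served as a floor before taking log2. A probe set was kept when at least 3 arrays exceeded the median of all values (475.55), and the brightest kept probe set stood for its gene. The model in limma 3.58.1 (under R 4.3.3) had a coefficient for each time (8 residual and 6.64 prior degrees of freedom), and the mean of 3 and 14 days was set against the mean of 0 and 2 hours. Calls are at a Benjamini-Hochberg adjusted p under 0.05 over 3477 genes. The number of arrays limits the precision. The procedure was tested on simulated data.

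The gene lists (39, described without a set test) and the members compared were chosen with earlier results of these data known. Some genes stand in several lists, so counts of different lists are not independent. Named genes were the shared genes, in each list described the called members of lowest p (4 at most), and the 4 largest rises and falls between 3 and 14 days and between 0 and 2 hours among called genes. The values of Tnnc2, Ckmt2, Actn3, Sh3bgr, Ryr1, Myom1, Cox7a1, Pgam2, Timp1, Timp2, C1qa, the other Sprr genes and genes given only by their change had been seen before these were chosen. Ckmt2, Actn3, Ryr1, Myom1, Sprr1a, Sprr2g and Sprr2j-ps were taken only from called genes without overlap, so its absence in them was fixed by the choice. The alternatives tried were quantile and median scaling, other floors, filters, probe set choices and variance models, array weights, a replicate block, 2 groups without times, a minimum change, each time and each array left out, and the Gapdh ratio or muscle signal as a covariate. Replicate numbers did not pair samples across times, since the deviations of 2 among 18 pairs with the same number correlated over 0.1 (median -0.066). Promoters are RefSeq sequence of GRCm38.p6. Promoters were searched and figures drawn in Python 3.11.15 (pandas 2.3.3, matplotlib 3.10.9).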

Additional observations from a re-analysis of the deposited data

Results flagged for a closer look

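In the early group, the Tnc intensity of 2 hours replicate 3, 8.08 on the log2 scale, stood apart from the other 5 arrays, which were all at the floor. Values at the floor have no spread of their own, so how often such a gap arises by chance cannot be told here.

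Several called genes differed within a stage by limma. From 3 to 14 days Krt71, Krt25, Krt27 and S100a3 changed by 5.71, 4.65, 4.16 and 3.45, and Saa3, Cxcl5, Cxcl2 and Il1b by -4.77, -3.46, -3.13 and -3.07. From 0 to 2 hours Hspa1a, Hspa1b, Hsph1 and Mt2 changed by 4.09, 3.34, 2.37 and 2.35, and Krt71, Tnni1, S100a3 and Jkamp by -2.02, -1.98, -1.52 and -1.44.

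Probe sets outside the comparison also moved. Of 215 tested probe sets that name no gene, 22 were higher and 24 lower in late skin. Of 186 that name several genes, 18 were higher and 10 lower, and 2 of them were higher in all 4 differences after adjustment.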

How the results depend on the processing

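The counts of genes called and of genes shared (418 higher, 311 lower, 9 shared higher and 0 shared lower) moved by less than 1.5 times under quantile normalization, median scaling, both other floors, the filter on 6 arrays, other probe set choices, trended and robust variance and the replicate block (370 higher and 283 lower called, 9 shared). The block, for numbers that did not pair the arrays, moved no count by over 1.5 times. With no filter 205 genes were lower and 3 shared, with the filter at the 75th percentile 264 were higher, with array weights 14 were shared, and in 2 groups without times 207 were lower. Requiring a log2 change of at least 1 left 9 higher and 1 lower. Without 0 hours 64 genes were shared as higher and 38 as lower. Without 2 hours 158 were lower, 28 shared higher and 7 shared lower. Without 3 days 247 were higher and 167 lower, with 63 and 19 shared, and without 14 days 239 and 110, with 85 and 3 shared; fewer differences then had to pass. The Gapdh covariate left 2 higher, 1 lower and 0 shared, and the muscle covariate 16, 2 and 1. With the largest p unadjusted, a choice made after seeing the data, 133 were higher and 86 lower. With single arrays left out the counts were 293 to 474 higher, 159 to 409 lower, 7 to 20 shared higher and 0 to 3 shared lower.

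Single genes turned direction where the time that carried them was left out. Jkamp was 0.07 without 0 hours. Without 2 hours Errfi1 was 0, Hspa1a 0.09, Hspa1b 0.30, Hsph1 0.12 and Mt2 0.69, the last called higher. Without 3 days Cxcl2 was -0.03, Cxcl5 0 and Il1b -0.03. Without 14 days Krt25 was -0.50, Krt27 -0.86, Krt35 -0.21, Krt71 -1.01, Ptch1 0 and S100a3 -0.86. Under the Gapdh covariate Cxcl2 was -0.21, Il1b -0.30 and Ppib 0, and under the muscle covariate Thrsp was 0.03. The cause was not tested. Genes near the background, such as those on the floor in early skin, have a bound rather than a level there, and 129 called genes had such arrays in their lower group.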
